A study of Homo sapiens with 12 samples.

Results

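Oxidative phosphorylation subunit genes are the nuclear genes that encode the protein parts of the mitochondrial respiratory chain and ATP synthase. They were taken by symbol: NDUFA, NDUFB, NDUFC, NDUFS and NDUFV genes for complex I, SDHA to SDHD for complex II, UQCR genes and CYC1 for complex III, COX4 to COX8 genes for complex IV and ATP5 genes for complex V, without assembly factors named NDUFAF and without pseudogenes. The gene table names 76 such genes with 98 probes. Of these, 75 genes with 95 probes were tested, among 9203 named genes with 11868 probes. They comprise 34 genes of complex I, 3 of complex II, 9 of complex III, 11 of complex IV and 18 of complex V.

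In the respiratory chain, complex I (NADH dehydrogenase) and complex II (succinate dehydrogenase) pass electrons to ubiquinone, complex III passes them on to cytochrome c, and complex IV (cytochrome c oxidase) gives them to oxygen. Complexes I, III and IV pump protons as they do so, and complex V (ATP synthase) makes ATP as the protons flow back through its ring of c subunits. Colon epithelium relies on this pathway to burn short-chain fatty acids. The subunit genes of the nucleus are transcribed with the help of factors such as NRF1, GABP and YY1, while the remaining subunits are encoded by mitochondrial DNA. None of the 13 genes of that second kind is named in the gene table, and they were not analysed here.

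RNA came from Caco-2 cells, an established line of human colonic adenocarcinoma that can take on features of enterocytes, transfected with siRNA by means of lipofectamine RNAiMAX and hybridized to Illumina bead arrays. There were 12 arrays in 4 groups of 3: ZNF658 siRNA 1 and control siRNA 1, both from Ambion, and ZNF658 siRNA 2, which is a pool, and control siRNA 2, both from Dharmacon. ZNF658 is a zinc finger protein that binds the zinc transcriptional regulatory element (ZTRE). Nothing in the labels says whether replicates came from separate cultures, so P values measure the spread between these arrays, which may be technical. Values are log2 signals after background correction and quantile normalization (neqc). The effect of a ZNF658 siRNA is its log2 difference from the control of the same supplier, in 1 limma fit over all 12 arrays. A probe was called where it differed by 1.2-fold or more with P under 0.05 after Benjamini-Hochberg adjustment. In these whole-culture samples fewer cells carrying a transcript and less of it per cell cannot be told apart.

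Between 14454 and 16167 probes were detected per array, and the number of arrays limits the precision. ZNF658 itself has no named probe, so its knockdown was not read. Of 24 genes listed as markers of enterocyte-like colon epithelium, 14 have a named probe, and 12 of these passed the filter. Among them were EPCAM, CDH1, CDX2, KRT8 and KRT19, and, at lower mean signals, DPP4 (7.47) and APOB (6.10). MUC13 and GPA33 did not pass. Of 16 named trophoblast markers, 15 passed as well, so passing the filter does not settle the cell type. Some arrays matched an array of another group best. Replicate 3 of ZNF658 siRNA 2 correlated best with replicate 1 of control siRNA 2 (r = 0.989 over 14804 probes), and replicate 3 of control siRNA 2 correlated at a mean of 0.947 with its own group, against 0.967 to 0.987 for the 11 other arrays, and best with replicate 2 of ZNF658 siRNA 2. In the Ambion groups, replicate 3 of ZNF658 siRNA 1 and replicate 1 of control siRNA 1 matched each other best (r = 0.990). Results are therefore also given without replicate 3 of both siRNA 2 groups (the Dharmacon pair), without the Ambion pair (a setting chosen after seeing the data), and with array quality weights. The lowest weights were 0.156 for replicate 3 of control siRNA 2, 0.512 and 0.626 for replicates 2 and 3 of ZNF658 siRNA 2, and 0.533 for replicate 3 of ZNF658 siRNA 1.

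The subunit genes were well expressed. Of the 95 probes, 92 were detected on all 12 arrays. The exceptions were NDUFC2 and the dimmer of the probes for UQCRB, on 11 arrays each, and NDUFV3, on 9. Of the tissue-specific isoforms of complex IV, the table names COX6A2, the form of heart and skeletal muscle, which was detected on 1 array (replicate 1 of ZNF658 siRNA 1) and was not tested, while its counterpart COX6A1 was detected on all 12. For a gene with several probes the one with the highest mean signal stands for the gene unless another is named.

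Neither ZNF658 siRNA gave a subunit gene that passed the test. With siRNA 1, 0 of the 95 member probes were called, against 0.0135% of all tested probes. With siRNA 2 it was 0 against 0%, for the mean of both siRNAs 0 against 0.00675%, for the difference between the 2 effects 0 against 0%, and between the controls 0 against 2.03%. The smallest adjusted P value of a member was 0.69 with siRNA 1, 0.82 with siRNA 2, 0.997 for the mean, 0.25 for the difference and 0.071 between the controls (limma). These P values do not show that the transcripts stayed the same.

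**Figure D1:**
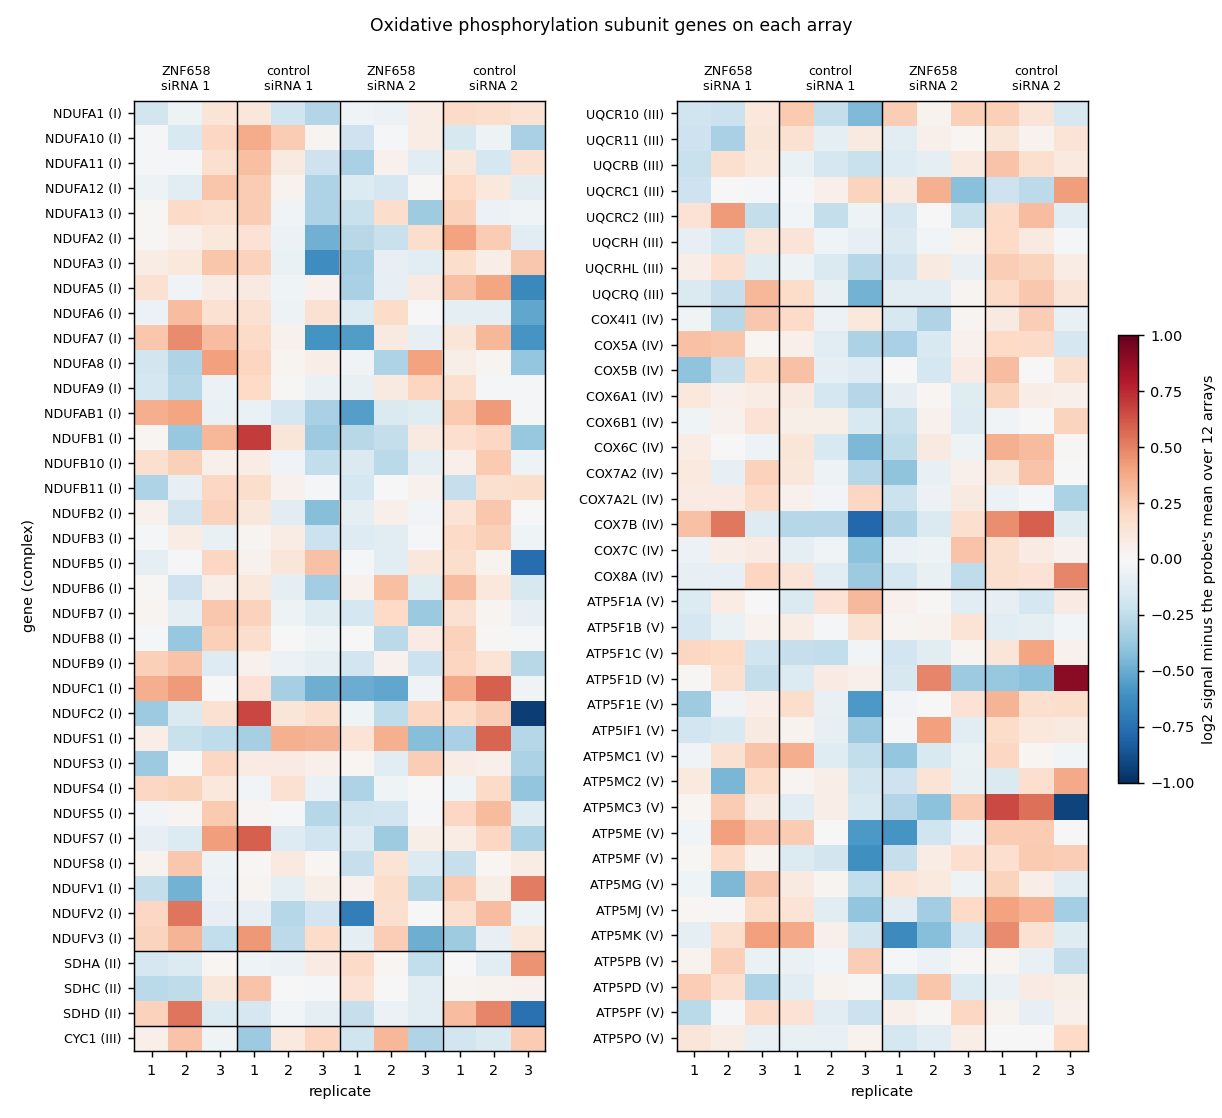
Log2 signal of the 75 subunit genes (rows, with the complex in brackets) on the 12 arrays (columns, replicate numbers below 4 group names), as the difference from the mean of the probe over all arrays; red is above and blue below that mean. Replicate 3 of control siRNA 1 and replicate 1 of ZNF658 siRNA 2 are blue for most genes, and replicates 1 and 2 of control siRNA 2 are red.

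The sign of the measured differences was not the same with the 2 siRNAs. With siRNA 1, 60 of 95 probes lay above 0 and 35 below, with a median log2 fold change of 0.05, against -0.01 over all 14804 probes. With siRNA 2, 21 lay above 0 and 74 below, with a median of -0.15 against 0.00. The mean of both siRNAs had a median of -0.03, with 32 above and 63 below. Median scaling in place of quantile normalization put 79 probes above 0 and 16 below with siRNA 1, and 4 above and 91 below with siRNA 2, and it moved the median of all probes to 0.12 and -0.18. Without replicate 3 of either siRNA 2 group, the median was -0.23 for siRNA 2 and -0.07 for the mean. The median for siRNA 1 rested on replicates of its control, since it was 0.01 without replicate 3 of control siRNA 1 and 0.15 without replicate 1. Without the Ambion pair it was 0.09, and 0 members were called in any comparison. Set against control siRNA 2 instead, the arrays of siRNA 1 had a median of -0.03, with 39 probes above 0 and 56 below.

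Counts past fixed limits leaned lower with siRNA 2. With siRNA 1 few probes were lower, while the share that was higher lay near or below that of all probes by 2 of these rules. With siRNA 1, 17 probes were at least 1.2-fold higher than in the control (17.9%), near the 16.2% of all probes, and 2 were at least 1.2-fold lower (2.11%), against 15.4%. With siRNA 2, 1 was at least 1.2-fold higher (1.05%, against 12.6%) and 22 were at least 1.2-fold lower (23.2%, against 13.3%). At an unadjusted P under 0.05, siRNA 1 gave 7 probes higher (7.37%), against 4.32% of all probes, and 0 lower, against 2.89%. With siRNA 2 these counts were 0 higher, against 3.29%, and 6 lower, against 2.36%. All 3 arrays of siRNA 1 lay above all 3 of its control for 7 probes (7.37%), less than the 8.19% of all probes. They lay below for 1 (1.05%), against 8.46%. With siRNA 2 this held above for 1, against 4.99%, and below for 15 (15.8%), against 4.49%.

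Among complex I genes, NDUFC1 and NDUFAB1 had differences of opposite sign with the 2 siRNAs. NDUFC1 encodes a small accessory subunit of the membrane arm. It read 9.32, 9.39 and 8.96 on the arrays of siRNA 1, 9.10, 8.63 and 8.47 with control siRNA 1, 8.47, 8.44 and 8.92 with siRNA 2, and 9.34, 9.56 and 8.92 with control siRNA 2. The arrays of siRNA 1 overlapped those of their control, and those of siRNA 2 lay below all 3 of theirs, though replicate 3 of both siRNA 2 groups read nearly the same. The log2 fold change was 0.49 with siRNA 1 (standard error 0.22, adjusted P = 0.69, limma) and -0.67 with siRNA 2 (standard error 0.22, adjusted P = 0.82). NDUFAB1 encodes the mitochondrial acyl carrier protein, which also serves fatty acid synthesis. It read 12.66, 12.69 and 12.23 with siRNA 1 and 12.23, 12.13 and 11.98 with control siRNA 1, against 11.75, 12.15 and 12.18 with siRNA 2 and 12.56, 12.73 and 12.29 with control siRNA 2. The groups of each supplier did not overlap: siRNA 1 lay above its control, with replicate 3 at the edge, and siRNA 2 below. The log2 fold changes were 0.42 and -0.50 (standard error 0.17 each, adjusted P = 0.69 and 0.82).

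NDUFV1, a core subunit that binds NADH and FMN, had the lowest value for the mean of both siRNAs. It read 10.29, 10.06 and 10.48 with siRNA 1 against 10.56, 10.45 and 10.59 with control siRNA 1, and 10.57, 10.71 and 10.26 with siRNA 2 against 10.79, 10.59 and 11.04 with control siRNA 2. Groups overlapped in both comparisons. The log2 fold changes of -0.25 and -0.30 gave a mean of -0.28 (standard error 0.12, adjusted P = 0.997). Without the Dharmacon pair, siRNA 2 had -0.051 and the mean was -0.15. Over all arrays it was the 1 member lower at an unadjusted P under 0.05, against 1.11% of all probes, with 0 higher, against 1.41%. The 6 core subunits as a group had medians of -0.07 with siRNA 1 and -0.08 with siRNA 2. The 28 accessory subunits, which surround the core, had 0.05 and -0.14. With siRNA 2, 22 of these 28 and 4 of the 6 core subunits lay below 0, and the difference between them was not tested. NDUFC2, another membrane arm subunit, had the lowest value with siRNA 1, -0.44 (standard error 0.30), and NDUFS1, an iron-sulfur core subunit, had -0.26 (standard error 0.29). Both were among the dim probes, and NDUFC2 read 5.32 on replicate 3 of control siRNA 2 against 6.45 and 6.51 on the other arrays of that group. Higher values came from NDUFA7, an accessory subunit, at 0.47 with siRNA 1 (standard error 0.26), and from NDUFA6 and NDUFB5, also accessory, at 0.25 and 0.18 with siRNA 2 (standard errors 0.17 and 0.19), which were 0.12 and -0.17 without the Dharmacon pair, NDUFB5 being -0.14 with median scaling.

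Complex II and complex III gave no call with either siRNA. SDHA, the flavoprotein of succinate dehydrogenase, differed by -0.09 with siRNA 1 and -0.12 with siRNA 2 on the log2 scale (standard error 0.18 each), the latter 0.16 without the Dharmacon pair. SDHD, a membrane anchor, had the widest range of group means in complex II. It read 11.49 and 11.67 on replicates 1 and 2 of control siRNA 2 but 10.44 on replicate 3, and its log2 fold change was 0.30 with siRNA 1 and -0.15 with siRNA 2 (standard error 0.25 each). Without the Dharmacon pair the value with siRNA 2 was -0.54 (adjusted P = 0.11), and SDHD was among the members called lower with array quality weights. In complex III, CYC1, the cytochrome c1 subunit, had 0.12 and -0.03, and UQCRC1 and UQCRC2, the core proteins, had -0.16 and 0.22 with siRNA 1 and 0.03 and -0.27 with siRNA 2. Without the Dharmacon pair, CYC1 had 0.23, UQCRC1 0.46 and UQCRC2 -0.34 with siRNA 2. UQCRH, the hinge protein, and its near-identical copy UQCRHL may share signal and are uncertain. The brighter UQCRH probe had -0.05 with siRNA 1 and the dimmer one 0.61 (standard error 0.21), with values of 10.66, 10.85 and 10.20 against 10.15, 9.91 and 9.81.

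Of the 5 complexes, complex IV had the lowest median for siRNA 2, at -0.22, with 10 of 11 genes below 0, and a median of 0.16 for siRNA 1, with 9 of 11 above. COX7B, a small subunit, read 11.97, 12.21 and 11.55 with siRNA 1 and 11.39, 11.40 and 10.90 with control siRNA 1, without overlap. With siRNA 2 it read 11.38, 11.54 and 11.85, overlapping 12.15, 12.28 and 11.56 with control siRNA 2. The log2 fold changes were 0.68 (adjusted P = 0.69) and -0.41 (adjusted P = 0.91), each with a standard error of 0.22, and siRNA 2 had -0.76 without the Dharmacon pair (adjusted P = 0.062). Against control siRNA 2, siRNA 1 had -0.083 for COX7B and -0.053 for NDUFC1. COX8A, another small subunit, read 12.48, 12.57 and 12.40 with siRNA 2, below the 12.81, 12.79 and 13.14 of its control, a log2 difference of -0.43 (standard error 0.15, adjusted P = 0.82) that was -0.28 without the Dharmacon pair. Among paired nuclear subunits, COX5A had 0.32 and -0.22 and COX5B, which holds the zinc site of the complex, -0.18 and -0.19. COX7A2L, which joins complexes III and IV into supercomplexes, was the 1 gene of this group above 0 with siRNA 2, at 0.07 (-0.095 without the Dharmacon pair), and its value was 0.05 with siRNA 1.

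Within ATP synthase, medians are given by part, each over few genes, and differences between parts were not tested. The peripheral stalk, with 4 genes, had 0.04 with siRNA 1 and 0.01 with siRNA 2. The 5 genes of the F1 head and central stalk had -0.02 with siRNA 1 and -0.05 with siRNA 2. ATP5F1B, the catalytic beta subunit, varied little. It read 14.38, 14.48 and 14.58 with siRNA 1, 14.62, 14.53 and 14.70 with control siRNA 1, 14.57, 14.58 and 14.68 with siRNA 2, and 14.43, 14.46 and 14.51 with control siRNA 2. These values lie within 0.32 of each other, and siRNA 2 lay just above its control, at a log2 difference of 0.15 (standard error 0.09, adjusted P = 0.92), which was -0.26 with median scaling. The 3 genes of the c ring, ATP5MC1, ATP5MC2 and ATP5MC3, encode the same mature protein and had -0.27, -0.18 and -0.24 with siRNA 2, and 0.14, -0.03 and 0.19 with siRNA 1. Without the Dharmacon pair the values with siRNA 2 were -0.38, -0.048 and -0.95. The 5 small membrane subunits had medians of 0.20 and -0.22. ATP5MK, one of them, read 7.20, 7.41 and 7.67 with siRNA 2, against 8.32, 7.99 and 7.72 with control siRNA 2, which is a log2 difference of -0.58 (standard error 0.22, adjusted P = 0.84), and 0.08 with siRNA 1. The groups of siRNA 2 and its control did not overlap, with replicate 3 of each lying closest. ATP5IF1, the inhibitor of the ATPase, had 0.05 and -0.03.

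**Figure D2:**
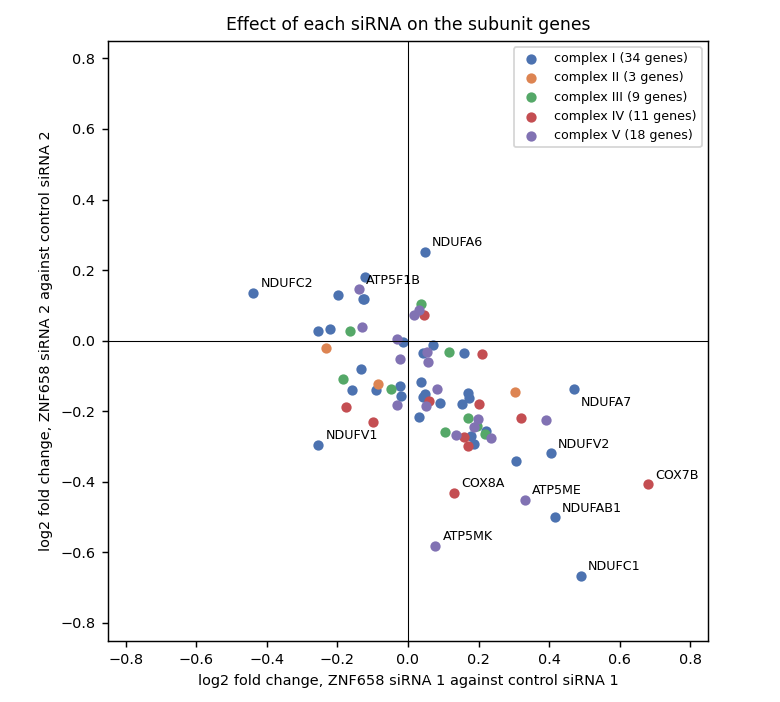
Log2 fold change of each subunit gene with ZNF658 siRNA 2 (vertical axis) against that with ZNF658 siRNA 1 (horizontal axis), each relative to the control of its supplier, coloured by complex. Most genes lie below 0 on the vertical axis (59 of 75), and COX7B, NDUFC1 and NDUFAB1 lie far to the right and low.

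Whether the 2 siRNAs differed in their effect was tested by their difference, siRNA 2 minus siRNA 1. It had a median of -0.19 over the members, against 0.01 over all probes, with 26 above 0 and 69 below, and complex IV had -0.38. No member passed. The lowest values were NDUFC1, at -1.16 (standard error 0.31, adjusted P = 0.25, limma), COX7B, at -1.09 (standard error 0.31, adjusted P = 0.26), and NDUFAB1, at -0.92 (standard error 0.23, adjusted P = 0.25). The highest were NDUFC2, at 0.57 (standard error 0.43), NDUFA10, an accessory subunit, at 0.33 (standard error 0.23), and NDUFB5, at 0.30 (standard error 0.28), the last pair being -0.020 and -0.15 with median scaling. Without the Dharmacon pair these 3 were 0.068, 0.19 and -0.046, and the other probe of NDUFA10 had -0.18 over all arrays. At an unadjusted P under 0.05, 18 probes were lower (18.9%, against 5.78% of all probes) and 1, for ATP5F1B, was higher (1.05%, against 5.01%). This comparison uses all 4 groups, so it holds the differences between the controls as well.

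Values of these genes also leaned to one side between the controls, though 0 of the 95 member probes were called, against 2.03% of all probes. Control siRNA 2 had a median log2 fold change of 0.10 over control siRNA 1 (0.01 over all probes), with 67 probes above 0 and 28 below, and 10 of 11 complex IV genes above. COX7B, with the values given above, had 0.76 (standard error 0.22, adjusted P = 0.092), and ATP5MF, the f subunit of ATP synthase, 0.54 (standard error 0.14, adjusted P = 0.071). ATP5MF read 13.04, 13.14 and 13.12 with control siRNA 2 and 12.74, 12.69 and 12.27 with control siRNA 1, without overlap. NDUFC1 had 0.54 (standard error 0.22, adjusted P = 0.26). On the lower side, NDUFC2, NDUFA10 and NDUFB5 had -0.49, -0.39 and -0.33, which were -0.10, -0.32 and -0.047 without the Dharmacon pair. The other probe of NDUFA10 had 0.08. At an unadjusted P under 0.05, 16 probes were higher (16.8%, against 6.87%) and 1, for NDUFA10, was lower (1.05%, against 8.07%). In 1 of 12 fits that left out 1 array, a member passed. This was COX7B, at 0.98 (adjusted P = 0.0097, limma), without replicate 3 of control siRNA 2, the array with the lowest quality weight (0.156). Most markers of trophoblast separated the suppliers. Of 15 tested, 11 were called lower in control siRNA 2, against 226 of all 14804 probes. CGB5 was lowest, with a log2 fold change of -3.36, while KISS1 and GATA3 lay above 0, at 0.88 and 0.01. The summed log2 signal of the 15 ran from 14.5 to 14.7 in the Ambion groups and from 13.3 to 13.6 in the Dharmacon groups. The part of these markers in the values of the subunit genes between the controls was not tested.

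**Figure D3:**
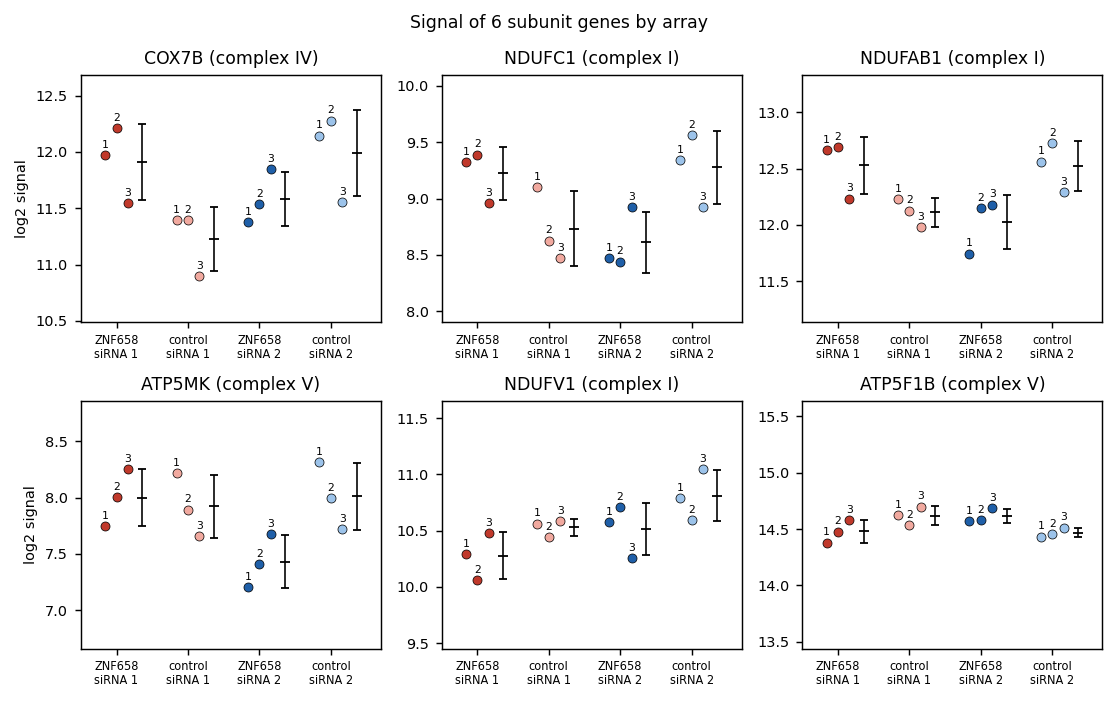
Log2 signal of 6 subunit genes on each array, numbered by replicate, with the group mean and SD (n = 3) to the right of each group; every panel spans the same height. COX7B, NDUFC1 and NDUFAB1 have higher means with siRNA 1 than with its control and lower means with siRNA 2 than with its control. Arrays overlap for NDUFC1 with siRNA 1 and for COX7B with siRNA 2, and none of these differences passed the test. NDUFV1 has lower means with both (-0.051 with siRNA 2 when replicate 3 of both its groups is left out), and ATP5F1B stays within 0.32.

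Some settings gave calls. With array quality weights, 5 members were called higher with siRNA 1 (COX7B, UQCRH, NDUFC1, NDUFAB1 and COX5A), against 3.36% of all probes, and 14 lower with siRNA 2 (14.7%), against 2.34%. Those 14 included NDUFC1, at -0.90 (adjusted P = 0.018), NDUFAB1, at -0.76 (adjusted P = 0.017), ATP5MK, at -0.79 (adjusted P = 0.028), and COX7B, at -0.71 (adjusted P = 0.028). For the difference 29 were lower (30.5%), against 9.99%, and between the controls 23 were higher (24.2%), against 8.57%. Without replicate 3 of both siRNA 2 groups, 3 members were lower with siRNA 2, against 0.615% of all probes: NDUFC1, at -0.998 (adjusted P = 0.036), ATP5MC3, at -0.95 (adjusted P = 0.031), and the dimmer probe of ATP5MG, the g subunit, at -0.93 (adjusted P = 0.036). In the same fit, 13 members were lower (13.7%, against 4.83%) and 1 higher (ATP5F1D, against 4.81%) for the difference, and 4 were higher between the controls (COX7B, NDUFC1, ATP5MC3 and UQCRH), against 2.18%. No member was called with siRNA 1 or for the mean in that fit, nor for the mean with weights.

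The arrays of one group did not read alike. The median deviation of the 95 probes from their own means was -0.01, 0.01 and 0.12 on replicates 1, 2 and 3 of siRNA 1, 0.10, -0.05 and -0.18 with control siRNA 1, -0.16, -0.01 and 0.01 with siRNA 2, and 0.17, 0.15 and -0.03 with control siRNA 2. The replicates of control siRNA 1 were spread more widely (-0.18 to 0.10) than those of siRNA 1 (-0.01 to 0.12). On the same arrays the probe for 18S rRNA read 9.58, 9.57 and 10.70, then 10.74, 14.55 and 14.74, then 13.99, 14.55 and 9.88, and last 10.22, 10.06 and 11.56 on the log2 scale. The arrays with the lowest medians, replicate 3 of control siRNA 1 and replicate 1 of siRNA 2, had 18S readings of 14.74 and 13.99. The part of this signal in the results was not tested.

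**Figure D4:**
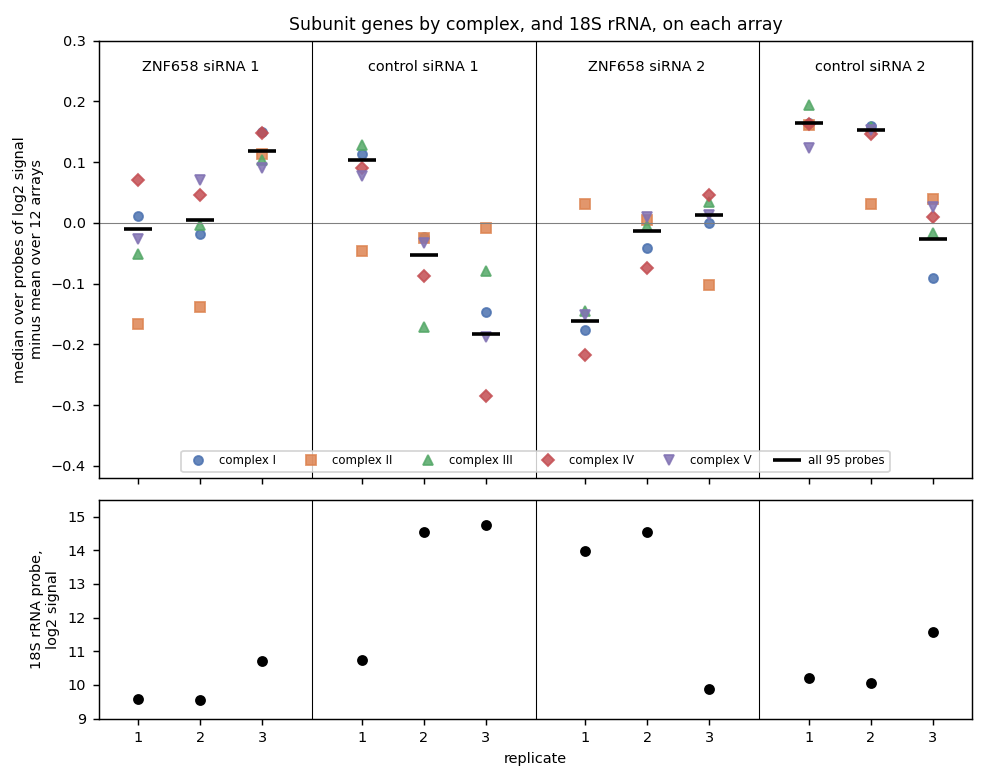
Above, the median over probes of the log2 signal minus the mean of each probe over 12 arrays, for each complex and for all 95 probes, on each array; below, the log2 signal of the 18S rRNA probe on the same arrays. Replicate 3 of control siRNA 1 has the lowest median of the 95 probes (-0.18) and the highest 18S rRNA signal (14.74). Replicate 1 of control siRNA 2 has the highest median (0.17) with an 18S rRNA signal of 10.22. Replicate 2 of ZNF658 siRNA 2 has a median of -0.01 with an 18S rRNA signal of 14.55. A relation between the panels was not tested.

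Of 18 genes with several tested probes, some had probes of opposite sign by at least 0.3 in log2 fold change: 4 with siRNA 1 (SDHC, UQCR10, UQCRH and ATP5MG), 5 with siRNA 2 (NDUFA10, UQCR10, UQCRB, ATP5MG and ATP5PF), 6 for the difference (NDUFA10, SDHC, UQCR10, UQCRB, ATP5F1D and ATP5MG) and 4 between the controls (NDUFA10, SDHC, UQCR10 and UQCRB). For UQCR10, a small subunit of complex III, the 3 probes ran from -0.12 to 0.30 with siRNA 1 and from -0.14 to 0.33 with siRNA 2. Values of such genes depend on the probe.

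Genes that work with the subunits gave no call with either siRNA. Of 47 tested assembly factors, 27 lay above 0 with siRNA 1 (median 0.05) and 31 below 0 with siRNA 2 (median -0.11). COX17, a copper chaperone of complex IV, had 0.29 and -0.56 (standard error 0.17 each), the lowest with siRNA 2. COX20, which helps to insert COX2, had 0.74 and -0.16 (standard error 0.24 each), the highest with siRNA 1. At the other ends, COX15 was lowest with siRNA 1, at -0.55, and had -0.03 with siRNA 2. ATPAF1 was highest with siRNA 2, at 0.28, and had -0.22 with siRNA 1 (standard error 0.22 each for both genes). The 12 citrate cycle enzymes had medians of -0.08 and -0.11. With siRNA 2, SUCLG1, of succinyl-CoA ligase, was highest, at 0.35 (standard error 0.16), and IDH3A lowest, at -0.34 (standard error 0.18). With siRNA 1, DLD was highest, at 0.23 (standard error 0.22), and IDH3G lowest, at -0.39 (standard error 0.20). The 17 regulators and factors of mitochondrial DNA maintenance had -0.01 and 0.04. SSBP1, which binds single-stranded mitochondrial DNA, was highest with siRNA 1, at 0.42, and had -0.33 with siRNA 2 (standard error 0.16 each). YY1 had the opposite signs, -0.29 and 0.27 (standard error 0.13 each). POLRMT was lowest with siRNA 1, at -0.50 (standard error 0.40). With siRNA 2, MTERF1 was highest, at 0.53, and ESRRA lowest, at -0.50 (standard error 0.23 each). Cytochrome c (CYCS) had 0.33 and -0.12, and HCCS, which attaches its heme, 0.19 and 0.01.

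RefSeq promoter windows (GRCh38.p14, 250 bases before to 50 after the annotated start) were at hand for 62 of the 75 genes. The NRF1 core GCATGCGC, on either strand, was in 16.1% of the member windows and 3.27% of 27305 windows of all genes, and its looser form GCNTGCGC, which includes the core, in 37.1% and 12.5%. The YY1 core AANATGGCG was in 13 of the 62 member windows and 3.37% of all, and the GABP site CCGGAAG in 30.6% and 10.7%. The ZTRE half-site, CNCNCCN with A or C, then A, G or T, then C or T at the open positions, was in 74.2% and 71.5%, and a pair of half-sites on opposite strands at most 30 bases apart in 12.9% (8 of 62: NDUFA6, NDUFA8, NDUFB1, NDUFB6, NDUFC1, COX5A, ATP5F1E and ATP5MC1) and 10.9%. Such a pair may have its strands in either order and spans a shorter gap than the paper's motif allows, so these are not counts of that motif. The windows of the 3 genes with the lowest difference between the siRNAs, and of ATP5MK, are shown 5′ to 3′ with matches to the looser NRF1, YY1, GABP and ZTRE half-site motifs in capitals. COX7B (chrX:77899218-77899517, plus strand) has none of these letters, NDUFC1 (chr4:139302502-139302801, minus strand) has a pair of ZTRE half-sites 16 bases apart across its start, NDUFAB1 (chr16:23596267-23596566, minus strand) an NRF1 match, and ATP5MK (chr10:103396426-103396725, minus strand) 3 GABP matches and 2 half-sites.
COX7B: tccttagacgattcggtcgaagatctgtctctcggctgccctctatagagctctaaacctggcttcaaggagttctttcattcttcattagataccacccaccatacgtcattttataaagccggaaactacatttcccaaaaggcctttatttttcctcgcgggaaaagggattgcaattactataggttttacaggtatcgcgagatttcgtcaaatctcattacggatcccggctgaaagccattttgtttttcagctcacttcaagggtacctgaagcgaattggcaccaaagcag
NDUFC1: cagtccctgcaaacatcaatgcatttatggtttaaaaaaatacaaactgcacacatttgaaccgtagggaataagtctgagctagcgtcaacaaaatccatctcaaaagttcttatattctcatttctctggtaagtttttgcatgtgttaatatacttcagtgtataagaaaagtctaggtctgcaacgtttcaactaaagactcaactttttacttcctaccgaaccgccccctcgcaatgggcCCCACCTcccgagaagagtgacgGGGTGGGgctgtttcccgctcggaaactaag
NDUFAB1: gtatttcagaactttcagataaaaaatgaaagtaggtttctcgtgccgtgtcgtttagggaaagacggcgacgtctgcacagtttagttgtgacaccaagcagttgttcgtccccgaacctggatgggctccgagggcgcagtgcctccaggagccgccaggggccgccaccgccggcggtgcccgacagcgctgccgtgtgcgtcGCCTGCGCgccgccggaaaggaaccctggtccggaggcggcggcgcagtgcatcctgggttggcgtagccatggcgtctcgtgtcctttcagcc
ATP5MK: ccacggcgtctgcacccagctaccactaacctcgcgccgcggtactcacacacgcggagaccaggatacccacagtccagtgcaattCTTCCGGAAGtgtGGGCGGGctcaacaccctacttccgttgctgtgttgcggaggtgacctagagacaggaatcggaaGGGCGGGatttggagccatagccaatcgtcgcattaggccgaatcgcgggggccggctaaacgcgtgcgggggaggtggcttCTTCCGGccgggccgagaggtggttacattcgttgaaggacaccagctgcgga
The 4 genes share no motif of this set, and a match is a description of the letters only.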

How the data were processed

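Caco-2 RNA was measured on 12 Illumina HT12 arrays. The authors exported intensities and detection P values per probe with BeadStudio, deposited without normalization (47231 probes), and deposited a table of log2 values for 21105 probes, transformed and normalized before deposit; the paper names variance stabilizing normalization and the rank product method, and lumi (no version given) appears in the labels. Here neqc (limma 3.58.1, R 4.3.3) corrected the intensities for background and quantile normalized them (offset 16, about 770 negative controls inferred from the deposited detection P values). The 14804 probes that reached a detection P under 0.01 on every array of some group entered lmFit and eBayes (trend). Gene names come from the platform annotation; 2936 tested probes carry none, and 14 pseudogene probes were left out. Controls of both suppliers are given in the labels, but only the Dharmacon one in the study's siRNA table. The members, lists and the rule for naming genes (the 3 highest and 3 lowest per comparison, isoforms, disagreeing probes, list extremes) were chosen with earlier results of these data known. The fit was tested on simulated data with independent noise for each probe and array. These data did not imitate the likeness between arrays of different groups, so the test does not cover it. Alternatives were other normalizations, filters, weights, controls, a replicate block, rank product and leaving out arrays.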

Additional observations from a re-analysis of the deposited data

Results flagged for a closer look

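COX6A2, the heart and muscle form of a complex IV subunit, lay outside the tested set but was detected on 1 array of ZNF658 siRNA 1, at a log2 signal of 5.83, and on none of the 6 control arrays. It was picked by a rule that requires detection with a ZNF658 siRNA and on no control array. No other array of a ZNF658 siRNA detected it, and its highest control reading was 5.16, so it shows no effect.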

How the results depend on the processing

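No member was called under the other normalizations, filters and controls, with the replicate block, or by rank product in the 4 comparisons it was run on, apart from the settings that follow. Array quality weights gave 5 with siRNA 1, 14 with siRNA 2, 29 for the difference and 23 between the controls. Leaving out both arrays numbered 3 of the siRNA 2 pair gave 3, 14 and 4 for the last 3 of these. Leaving out the Ambion pair, chosen after seeing the data, gave 0 calls. Median scaling gave 5 between the controls (252 of 14804 probes). It moved the member medians to 0.19, -0.44, -0.60 and 0.39 for siRNA 1, siRNA 2, the difference and the controls, but it moved the median of all probes as well, to 0.12, -0.18, -0.30 and 0.20. Relative to these the members lay at 0.07, -0.26, -0.30 and 0.19. With 1 array left out, the member calls were 0 in the siRNA comparisons and 0 to 1 between the controls (COX7B), and the medians ran from 0.01 to 0.15 for siRNA 1, -0.21 to -0.10 for siRNA 2, -0.06 to 0.00 for the mean, -0.26 to -0.14 for the difference and 0.07 to 0.18 between the controls.

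Some named genes changed sign. Against control siRNA 2, siRNA 1 gave 0.050 for NDUFC2, -0.083 for COX7B and -0.053 for NDUFC1, and COX7B had -0.25 for the mean, and -0.037 without the pair of arrays. NDUFB5 with siRNA 2 was -0.14 with median scaling, -0.059 with weights, -0.11 to 0.36 with 1 array left out (lowest without replicate 3 of control siRNA 2) and -0.17 without the pair. ATP5F1B was -0.26 with median scaling, and NDUFA7 for the mean -0.063 with weights. For the difference, NDUFA10 was -0.020 with median scaling and -0.066 with 1 control for both siRNAs or all 6 controls pooled, and NDUFB5 -0.15 and -0.035 under the same settings and -0.046 without the pair. The cause was not tested.

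Replicate numbers did not pair the arrays: residuals of same-numbered arrays correlated at -0.59 to 0.40, and the best match of an array had its own number in 3 of 12 cases. With the replicate block, 0 members were called in each of the 5 comparisons, and the median for siRNA 2 was -0.15. With 3 arrays per group, the number of arrays limits the precision of single genes.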
